A study of Mus musculus with 6 samples.

Results

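The genes described here are 34 components and targets of the unfolded protein response and the integrated stress response. They were picked by gene symbol for their known roles, when earlier results of these data were already known. Of the 34 genes, 33 were among the 15634 genes in the deposited tables, and all 33 were among the 15547 genes with enough reads to be tested. Derl3, a member of the derlin family, was not among the listed genes and has no values here. RNA was sequenced from cultured bone marrow-derived mesenchymal stem cells (MSCs), adherent stromal cells that can form bone, fat and cartilage, of wild-type C57BL/6J mice. In the TNF group, 3 libraries came from cells exposed to the inflammatory cytokine TNF-α at 10 ng/mL for 24 h. In the Control group, 3 libraries came from cells of the same strain and genotype without stimulation. The labels give no passage number, sorting step or number of mice, and do not state whether the libraries of a group came from separate cultures, so the p-values refer to the variation among these libraries, which may be technical.

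The unfolded protein response starts in the endoplasmic reticulum (ER), the compartment where secreted and membrane proteins fold, when misfolded proteins accumulate there. Its 3 sensors are the ER membrane proteins IRE1α (encoded by Ern1), ATF6 and PERK (encoded by Eif2ak3). Active IRE1α splices Xbp1 mRNA and cleaved ATF6 moves to the nucleus, and the resulting factors induce ER chaperones and genes of ER-associated degradation (ERAD), the route by which misfolded proteins leave the ER for the proteasome. PERK phosphorylates the translation factor eIF2α, a step shared with other kinases in the integrated stress response, and this favours translation of ATF4, a factor that induces genes of amino acid supply and stress signalling. In MSCs the pathway is known for serving the secretion of collagen and other matrix proteins. Gene-level counts measure none of the splicing, cleavage, phosphorylation or translation steps and report mRNA amounts only.

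Total counts per library ranged from 45629973 to 77142418, and the members had between 460 and 67071 counts in a library. Reads of 18S ribosomal RNA made up 3.25%, 19.4% and 1.10% of counts in TNF libraries 1, 2 and 3, and 2.65%, 1.13% and 3.55% in Control libraries 1, 2 and 3. Control library 2 had the highest share of mitochondrially encoded RNA, 4.67%, against 2.72% to 3.26% in the other 5 libraries. Of 12 MSC markers, 11 were at 1 TPM (transcripts scaled for gene length and depth) or more in every library, the exception being Lepr. All 16 macrophage markers were also at 1 TPM or more in every library. Their summed level was 2738, 2440.0 and 2957 TPM in TNF libraries 1, 2 and 3, and 3580, 4827 and 3433 TPM in Control libraries 1, 2 and 3. In bulk RNA, fewer cells of a type and less of an RNA per cell cannot be told apart, and the part of macrophage RNA in the values of the members was not tested. Of 11 plasma cell and B cell markers, 3 were listed, and Jchain, Igkc, Cd79a, Mzb1 and 4 others were not.

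Promoter sequences are shown because the chaperone arm is known to be driven through the ER stress response element (ERSE) and the ATF4 arm through the C/EBP-ATF response element (CARE). Windows from 250 bases before to 50 bases after the annotated start were taken from a RefSeq table of mouse build GRCm38.p6, an older build than the one the authors aligned to, and 29 of the 34 members had a window. The letters searched, on both strands, were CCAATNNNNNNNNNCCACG for ERSE, ATTGGNCCACG for ERSE-II, TGACGTGG for the unfolded protein response element (UPRE) and TGATGNAA for CARE, and the sites found in members did not overlap each other. ERSE was present in 37 of 27025 windows of all genes (0.137%) and in those of 7 members, namely Hspa5, Creld2, Syvn1, Dnajc3, Pdia6, Hsp90b1 and Derl3. Only exact matches to the searched letters were counted and marked, so elements that differ from them are not shown. The 250 bases before the start of Hspa5 (chr2:34771840-34772089, plus strand) carry the site, in capitals, 65 bases before the start.
Hspa5: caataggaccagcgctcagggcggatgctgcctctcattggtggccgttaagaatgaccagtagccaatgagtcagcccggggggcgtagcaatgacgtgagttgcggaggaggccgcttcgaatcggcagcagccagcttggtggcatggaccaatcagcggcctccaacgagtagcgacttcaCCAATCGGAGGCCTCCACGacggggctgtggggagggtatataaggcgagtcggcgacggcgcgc
The sites of 4 other members lie 126 bases (Creld2, chr15:88819500-88819558), 44 bases (Syvn1, chr19:6046512-6046570), 105 bases (Dnajc3, chr14:118937807-118937865) and 98 bases (Pdia6, chr12:17266471-17266529) before the start, all on plus-strand genes. Capitals mark the site, which in Creld2 reads on the opposite strand.
Creld2: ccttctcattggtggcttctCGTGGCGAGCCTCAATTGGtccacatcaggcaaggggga
Syvn1: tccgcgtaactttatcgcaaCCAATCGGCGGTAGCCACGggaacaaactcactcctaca
Dnajc3: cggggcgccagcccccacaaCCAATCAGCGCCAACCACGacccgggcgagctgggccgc
Pdia6: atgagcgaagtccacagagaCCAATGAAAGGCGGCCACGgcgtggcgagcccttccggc
Hsp90b1 (chr10:86705523-86705666, minus strand) holds a site on each strand, 212 and 107 bases before its start.
Hsp90b1: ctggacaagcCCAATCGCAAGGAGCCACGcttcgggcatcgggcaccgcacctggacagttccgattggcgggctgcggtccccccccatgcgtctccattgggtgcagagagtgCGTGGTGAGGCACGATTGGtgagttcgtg

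ERSE-II was found in 12 of 27025 windows (0.0444%), 2 of them of members, Dnajb11 and Herpud1. CARE was found in 1219 windows (4.51%), among them those of the ATF4 arm members Asns, Chac1, Nupr1 and Trib3 and of Herpud1. UPRE was in 193 windows (0.714%) and in none of the 29 members, which says only that these letters are absent from these windows. Herpud1 (chr8:94386307-94386397, plus strand) is the only member with sites of 2 kinds, CARE 112 bases and ERSE-II 52 bases before the start, both in capitals.
Herpud1: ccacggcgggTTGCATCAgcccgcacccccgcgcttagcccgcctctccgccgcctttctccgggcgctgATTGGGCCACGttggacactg
The CARE sites, in capitals, lie 23 bases (Asns, chr6:7693214-7693243, minus strand), 193 bases (Chac1, chr2:119351038-119351067, plus strand) and 110 bases (Nupr1, chr7:126625562-126625591, minus strand) before the start. In Trib3 (chr2:152344028-152344057, minus strand) the site begins at base 15 after the start.
Asns: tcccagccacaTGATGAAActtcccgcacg
Chac1: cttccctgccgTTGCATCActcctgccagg
Nupr1: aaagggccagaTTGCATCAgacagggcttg
Trib3: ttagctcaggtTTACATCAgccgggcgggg

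After TNF-α, 7 of the 33 members rose and 0 fell. The 7 were the IRE1α sensor gene Ern1, the ER chaperone gene Hspa5, the folding factor gene Creld2, the co-chaperone gene Dnajb9, the ERAD ubiquitin ligase gene Syvn1, and in the ATF4 arm Atf4 itself and the eIF2α phosphatase subunit gene Ppp1r15a. Ern1 was higher by 1.97-fold, and the other 6 by 1.23-fold to 1.48-fold. Members were called at an adjusted p under 0.05 (edgeR quasi-likelihood test, two-sided, Benjamini-Hochberg over all 15547 tested genes). The same test called 16.0% of all tested genes higher and 16.4% lower, 32.4% in either direction. Of the members 21.2% were called higher and 0% lower. Their share was thus above that of all genes for higher calls, and below it for lower calls and for both directions together. Whether these shares differ from those of all genes was not tested. At an unadjusted p under 0.05 there were 11 members higher and 2 lower, Atf5 and Psat1, a count that was not set against all genes. DESeq2 called 9 members higher and 1 lower, Atf5, and among all genes 2787 higher and 2731 lower. The TNF and Control libraries did not overlap in 12 members (36.4%), 10 with TNF higher and 2 with TNF lower, against 48.7% of all tested genes. The median log2 fold change was 0.16 over the 33 members and -0.00 over all tested genes, while the median absolute log2 fold change was 0.21 over members and 0.28 over all genes. All members but Ern1 had a fitted change of less than 1.5-fold in either direction. Of the 26 members that were not called, 22 had a 95% interval that lay within 1.5-fold either way.

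**Figure D1:**
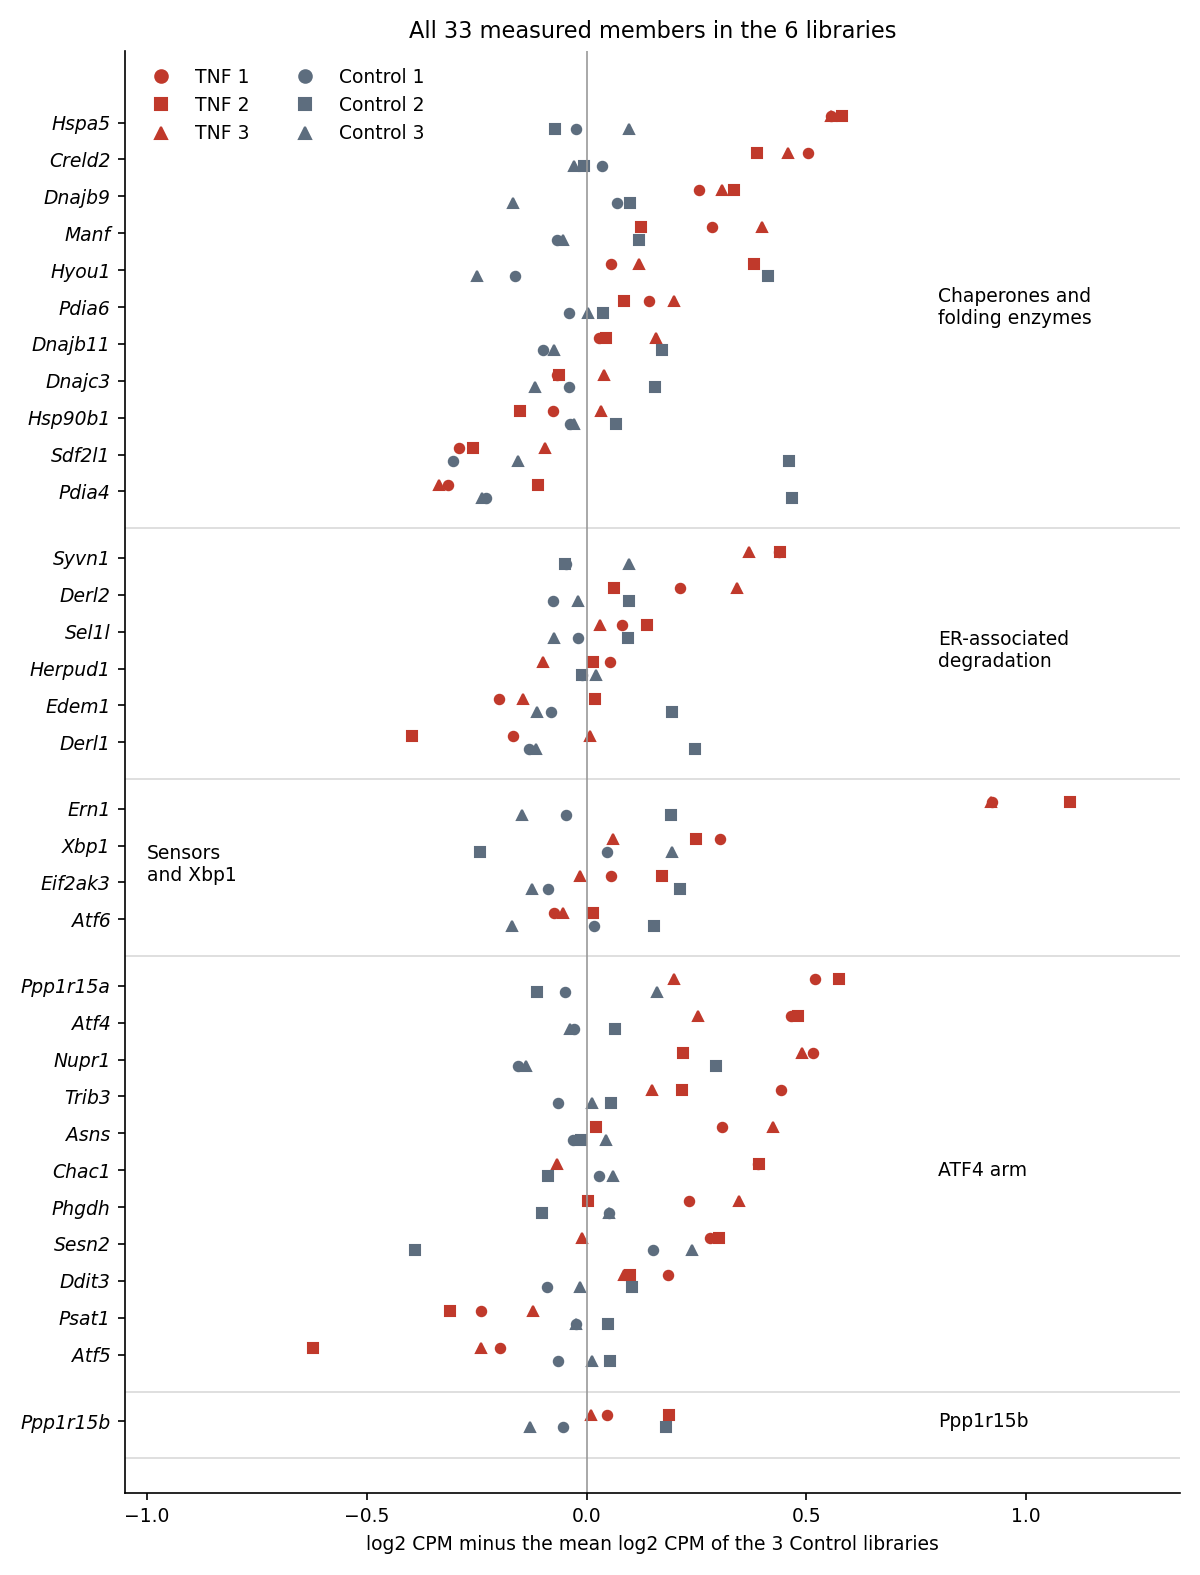
Each of the 33 members in each library, as log2 CPM (counts scaled to library size) minus the mean of the 3 Control libraries, TNF libraries in red and Control libraries in grey, with symbol shape giving the library number. Ern1 stands farthest to the right in all 3 TNF libraries, and Control library 2 (grey squares) lies apart from the other 2 Control libraries for Pdia4, Sdf2l1, Hyou1 and Sesn2.

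Among the 11 ER chaperones and folding enzymes, Hspa5, Creld2 and Dnajb9 rose and the other 8 were not called. Hspa5 encodes BiP, the most studied ER chaperone, which also holds the 3 sensors inactive. It had 778, 792 and 779 CPM (counts scaled to library size with TMM factors) in TNF libraries 1, 2 and 3, and 520.4, 504 and 566 CPM in Control libraries 1, 2 and 3. Every TNF library stood above every Control library, and the TNF libraries lay close together, with means of 783 ± 8.07 CPM in TNF and 530.1 ± 32.6 CPM in Control (SD, n = 3 each). The log2 fold change was 0.56 ± 0.10 (SE; edgeR adjusted p = 0.00287). Creld2, an ER protein induced by ER stress, had 42.3, 39.0 and 41.0 CPM in TNF libraries, against 30.5, 29.7 and 29.2 CPM in Control libraries. The groups did not overlap, and the log2 fold change was 0.45 ± 0.07 (SE; edgeR adjusted p = 0.00177). Dnajb9, a J-domain co-chaperone of BiP, had 40.3, 42.6 and 41.7 CPM in TNF libraries, against 35.4, 36.1 and 30.0 CPM in Control libraries. Here too the groups were separate, by a smaller gap, and the log2 fold change was 0.30 ± 0.09 (SE; edgeR adjusted p = 0.0363).

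The other chaperone genes gave a mixed picture. Manf, a secreted ER stress-induced protein, had 96.1, 86.0 and 104.0 CPM in TNF libraries, against 75.3, 85.7 and 76.0 CPM in Control libraries. TNF library 2 and Control library 2 nearly met, and the log2 fold change of 0.27 was not called (edgeR adjusted p = 0.0641). Pdia6, a protein disulfide isomerase, also showed no overlap (261 to 283 CPM in TNF, 239 to 253 CPM in Control), with a log2 fold change of 0.14 that was not called. Hsp90b1, the ER member of the HSP90 chaperone family, had 803, 762 and 867 CPM in TNF libraries, against 824, 887 and 829.6 CPM in Control libraries. Its groups overlapped, with a log2 fold change of -0.06 and a 95% interval of -0.31 to 0.18, although it carries ERSE on both strands as shown above. Dnajc3 and Dnajb11, 2 further J-domain co-chaperones, had log2 fold changes of -0.03 and 0.07, and neither was called. Of the 6 tested members with ERSE, 3 rose (Hspa5, Creld2 and Syvn1) and 3 were not called, and none of the 2 members with ERSE-II or the 5 with CARE was called. Herpud1 counts in both of the latter groups. Of all tested genes 16.0% were called higher, and a link between these elements and the calls was not tested.

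Hyou1, Pdia4 and Sdf2l1 were the chaperone genes in which 1 Control library decided the picture. Pdia4, a disulfide isomerase, had 105, 121 and 103 CPM in TNF libraries, against 111, 180.5 and 111 CPM in Control libraries, so that Control library 2 alone stood high. Sdf2l1, a partner of ER co-chaperones, likewise had 11.5, 11.7 and 13.2 CPM in TNF libraries, against 11.4, 19.4 and 12.6 CPM in Control libraries. Hyou1, the nucleotide exchange factor of BiP, had 74.9, 93.7 and 78.2 CPM in TNF libraries, against 64.3, 95.8 and 60.6 CPM in Control libraries. In Control library 2 these genes were 1.63-fold (Pdia4), 1.61-fold (Sdf2l1) and 1.53-fold (Hyou1) the mean of Control libraries 1 and 3. The fits with all libraries gave log2 fold changes of -0.29 for Pdia4, -0.25 for Sdf2l1 and 0.16 for Hyou1, none called. Without Control library 2 the values were -0.02 for Pdia4 and 0.02 for Sdf2l1, neither called, and 0.40 for Hyou1, which was then called (edgeR adjusted p = 0.0261).

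**Figure D2:**
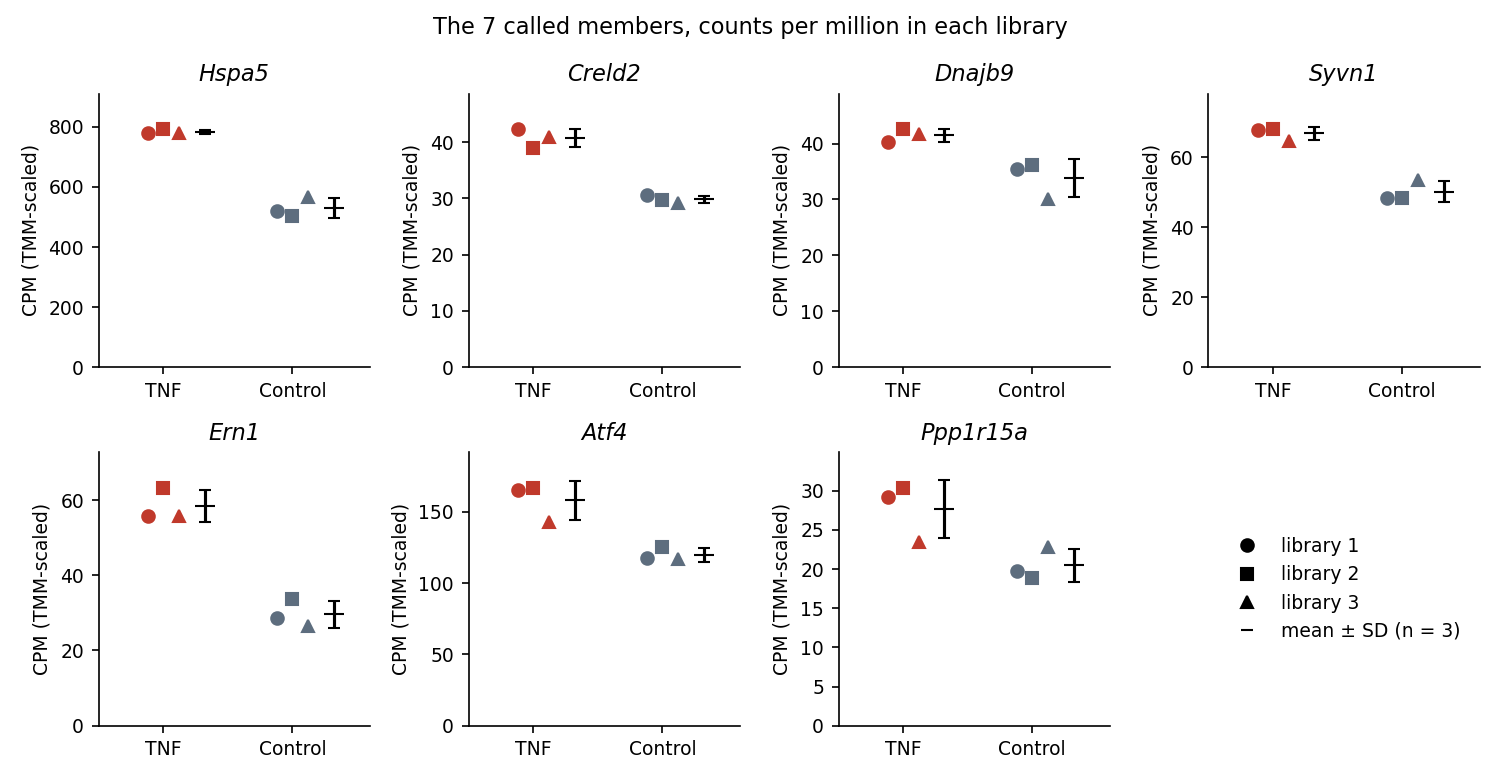
CPM in each library of the 7 members that were called, TNF left and Control right in each panel, with axes starting at 0 and the mean ± SD of 3 libraries beside each group. No Control library reaches a TNF library in any panel, and Ppp1r15a has the narrowest gap, 23.4 CPM in TNF library 3 against 22.8 CPM in Control library 3.

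Of the 6 measured ERAD members, Syvn1 rose. It encodes the ER membrane ubiquitin ligase HRD1, the core of the main ERAD complex. Syvn1 had 67.8, 68.0 and 64.7 CPM in TNF libraries, against 48.4, 48.4 and 53.5 CPM in Control libraries. The groups were well apart, with means of 66.8 ± 1.84 CPM in TNF and 50.1 ± 2.95 CPM in Control (SD, n = 3 each) and a log2 fold change of 0.41 ± 0.08 (SE; edgeR adjusted p = 0.00392). Its partners in the same complex were not called. Sel1l, the adaptor of HRD1, had 233, 242 and 225 CPM in TNF libraries, against 217, 235 and 209 CPM in Control libraries, and Herpud1, a scaffold of the complex, had 59.5, 57.9 and 53.5 CPM in TNF libraries, against 56.9, 56.9 and 58.2 CPM in Control libraries. Both sets of values overlapped, with log2 fold changes of 0.08 for Sel1l and -0.01 for Herpud1. Derl1 and Derl2, derlins that help move proteins out of the ER, had log2 fold changes of -0.19 and 0.21, and Edem1, which hands misfolded glycoproteins to ERAD, of -0.11, none of them called.

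Among the sensors, Ern1 had the largest fold change of any member. It had 55.9, 63.3 and 55.8 CPM in TNF libraries, against 28.5, 33.7 and 26.6 CPM in Control libraries. The lowest TNF library lay far above the highest Control library, with means of 58.3 ± 4.29 CPM in TNF and 29.6 ± 3.65 CPM in Control (SD, n = 3 each) and a log2 fold change of 0.98 ± 0.11 (SE; edgeR adjusted p = 0.000175). The other sensor genes did not show such a difference. Eif2ak3 had 27.7, 30.1 and 26.4 CPM in TNF libraries, against 25.1, 30.9 and 24.5 CPM in Control libraries, and Atf6 had 87.9, 93.5 and 89.1 CPM in TNF libraries, against 93.6, 103 and 82.2 CPM in Control libraries. Both overlapped, with log2 fold changes of 0.06 (95% interval -0.19 to 0.31) for Eif2ak3 and -0.04 (95% interval -0.26 to 0.18) for Atf6. As TPM, which allows genes of different length to be compared, the level of Ern1 was 1.29, 1.27 and 1.31 times that of Eif2ak3 in TNF libraries, against 0.719, 0.718 and 0.655 times in Control libraries. The order of the 2 sensor genes was thus opposite in the 2 groups. Xbp1, whose mRNA is the substrate of IRE1α, had 166, 159.6 and 140.2 CPM in TNF libraries, against 139, 114 and 154 CPM in Control libraries. Control library 3 lay above TNF library 3, and the log2 fold change of 0.20 was not called (edgeR adjusted p = 0.259). These counts do not separate spliced from unspliced Xbp1.

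In the ATF4 arm, 2 of 11 members rose, Atf4 and Ppp1r15a, and 9 were not called. Atf4 had 165, 167 and 143 CPM in TNF libraries, against 117, 125 and 117 CPM in Control libraries. TNF library 3 was the lowest of its group and still above every Control library, and the log2 fold change was 0.40 ± 0.09 (SE; edgeR adjusted p = 0.00989). Ppp1r15a, an ATF4-induced subunit that brings a phosphatase to eIF2α and so ends the response, had 29.2, 30.4 and 23.4 CPM in TNF libraries, against 19.7, 18.9 and 22.8 CPM in Control libraries. The gap between the groups was small, and the log2 fold change was 0.44 ± 0.12 (SE; edgeR adjusted p = 0.0254). Its constitutive counterpart Ppp1r15b had 65.4, 72.0 and 63.7 CPM in TNF libraries, against 61.0, 71.7 and 57.9 CPM in Control libraries, which overlapped (log2 fold change 0.08). Atf5, a related factor that is translated when eIF2α is phosphorylated, had 105, 78.6 and 102 CPM in TNF libraries, against 116, 125 and 122 CPM in Control libraries. Every TNF library was below every Control library, TNF library 2 by the most, and the log2 fold change of -0.34 narrowly missed the threshold (edgeR adjusted p = 0.0560). DESeq2 called Atf5 lower (adjusted p = 0.0323, range over all alternatives 0.0323 to 0.12). The TPM ratio of Atf4 to Atf5 was 1.68, 2.28 and 1.496 in TNF libraries, against 1.07, 1.04 and 1.04 in Control libraries.

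The other members of the arm, most of them known targets of ATF4, were not called. Trib3, a pseudokinase that feeds back on ATF4, had 16.2, 13.8 and 13.2 CPM in TNF libraries, against 11.4, 12.4 and 12.0 CPM in Control libraries. The groups did not overlap, and the log2 fold change of 0.27 was not called (edgeR adjusted p = 0.0712). Asns, asparagine synthetase, had 95.7, 78.5 and 103.7 CPM in TNF libraries, against 75.7, 76.7 and 79.7 CPM in Control libraries. TNF library 2 fell among the Control libraries, and the log2 fold change was 0.26 (edgeR adjusted p = 0.0980). Chac1, an enzyme that degrades glutathione, had 12.5, 12.5 and 9.08 CPM in TNF libraries, against 9.71, 8.96 and 9.93 CPM in Control libraries. Here TNF library 3 was within the Control range, and the log2 fold change was 0.25 (edgeR adjusted p = 0.185). Ddit3, which encodes the pro-apoptotic factor CHOP, had 27.0, 25.4 and 25.2 CPM in TNF libraries, against 22.3, 25.5 and 23.5 CPM in Control libraries. Its log2 fold change was 0.12, with a 95% interval of -0.07 to 0.32.

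Nupr1, a stress-induced chromatin protein, had 73.4, 59.7 and 72.1 CPM in TNF libraries, against 46.1, 62.9 and 46.6 CPM in Control libraries. Control library 2 exceeded TNF library 2 and lay 1.36-fold above the mean of the other Control libraries, and the log2 fold change of 0.40 was not called (edgeR adjusted p = 0.0588). The serine synthesis enzymes had fitted values of opposite sign, neither called. Phgdh, which catalyses the first step, had a log2 fold change of 0.20 (86.2 to 109 CPM in TNF, 80.2 to 89.1 CPM in Control), and Psat1, which catalyses the next, of -0.22 (54.1 to 61.7 CPM in TNF, 66.0 to 69.4 CPM in Control). Psat1 was lower in every TNF library than in any Control library, without being called (edgeR adjusted p = 0.0663). Sesn2, a regulator of growth signalling, had 116, 118 and 94.9 CPM in TNF libraries, against 106, 72.9 and 113 CPM in Control libraries, with Control library 2 at 0.666 times the mean of the other Control libraries and a log2 fold change of 0.17 that was not called.

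**Figure D3:**
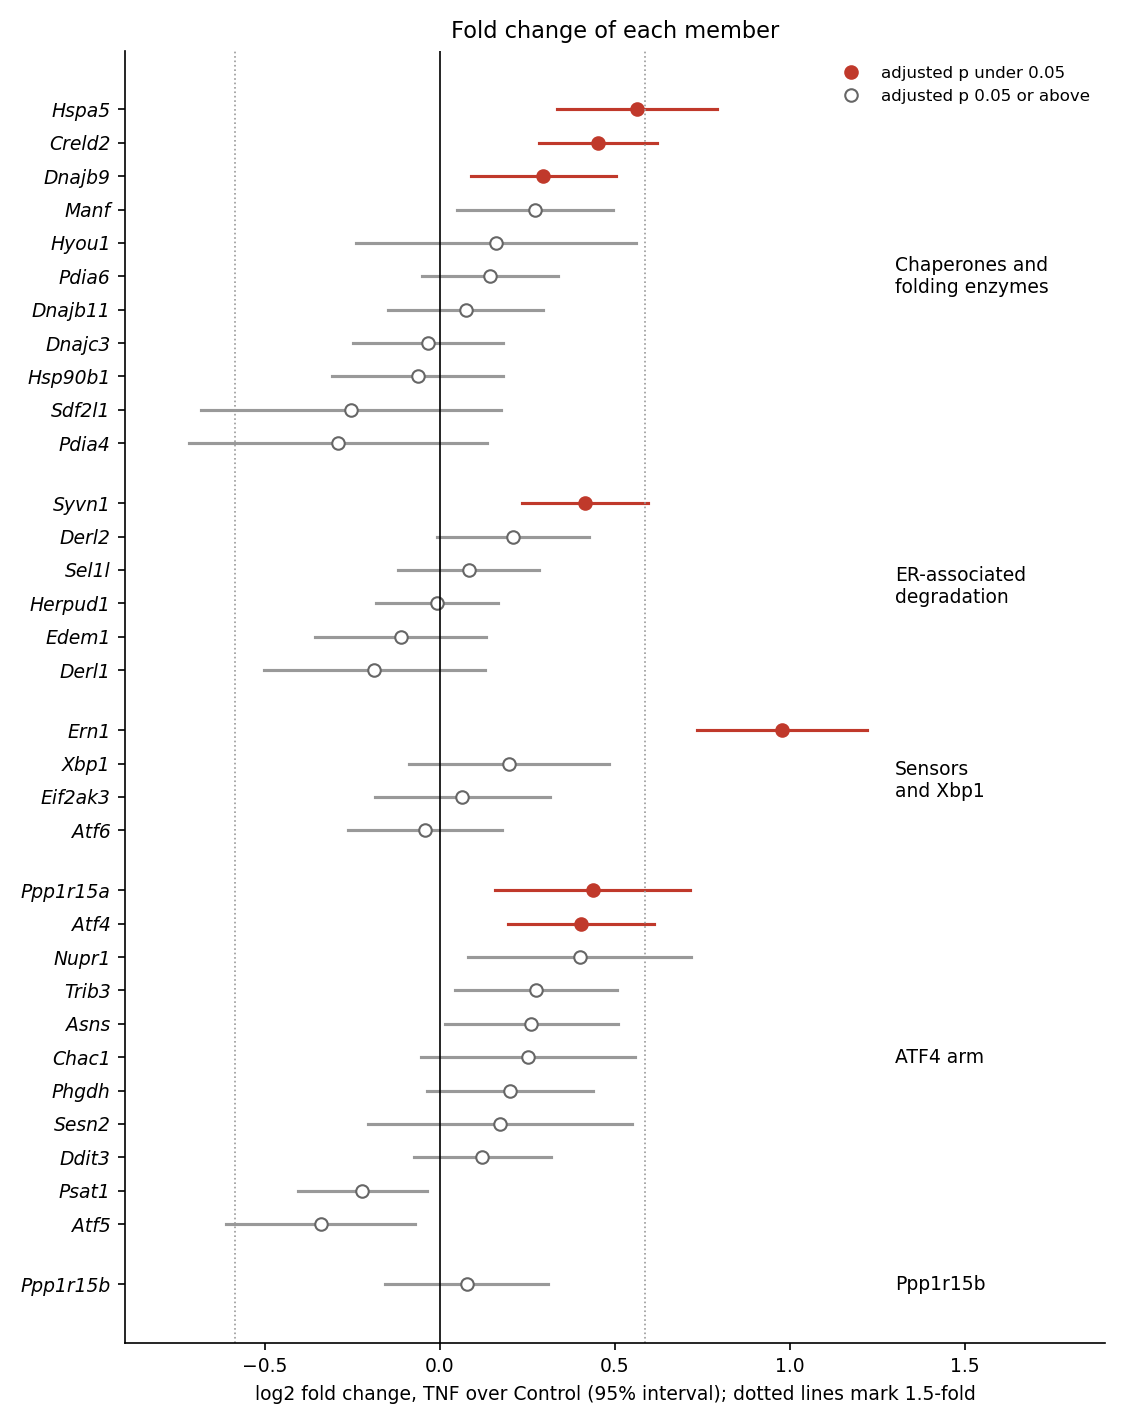
Log2 fold change of TNF over Control for each member with its 95% interval, filled red where the edgeR adjusted p was under 0.05, with dotted lines at 1.5-fold. The interval of Ern1 lies wholly to the right of the 1.5-fold line, and the intervals of Pdia4 and Sdf2l1 are the widest.

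Comparing the arms, the chaperone and ERAD arm had 4 of 17 measured members called higher (23.5%, median log2 fold change 0.08). The ATF4 arm had 2 of 11 (18.2%), its median being 0.25. Of all tested genes 16.0% were called higher, 16.4% lower and 32.4% in either direction. Both arms thus had a larger share called higher than all genes, and a smaller share called in either direction. Whether such small counts differ from all genes was not tested. Neither arm had a member called lower. The mean over the arm of log2 CPM, taken relative to the Control mean, was 0.09, 0.10 and 0.14 for the chaperone and ERAD arm in TNF libraries 1, 2 and 3, against -0.07, 0.15 and -0.07 in Control libraries 1, 2 and 3. Control library 2 was thus the highest of all 6 libraries for this arm. For the ATF4 arm the mean was 0.26, 0.13 and 0.14 in TNF libraries, against -0.03, -0.01 and 0.03 in Control libraries, and the groups did not overlap. The difference of the arms, chaperone and ERAD minus ATF4, was -0.18, -0.03 and 0.00 in TNF libraries, against -0.05, 0.15 and -0.10 in Control libraries. These differences overlapped between the groups, so no difference between the arms was resolved at this number of libraries. In the chaperone and ERAD arm the called genes stood beside members that hardly differed, such as Herpud1 (-0.01) and Dnajc3 (-0.03). In the ATF4 arm the members not called had log2 fold changes from -0.34 (Atf5) to 0.40 (Nupr1). The smallest in size there was 0.12 (Ddit3). Relative to Hsp90b1, the TPM level of Hspa5 was 0.756, 0.841 and 0.717 in TNF libraries, against 0.504, 0.445 and 0.543 in Control libraries.

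**Figure D4:**
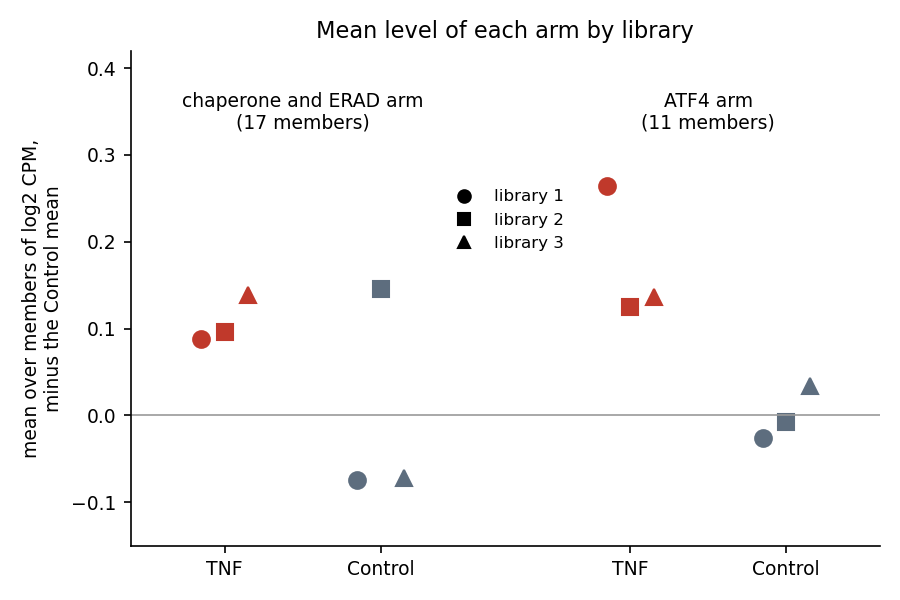
Mean over the members of each arm of log2 CPM minus the Control mean, 1 point per library, TNF left and Control right in each pair. Control library 2 (grey square) at 0.15 is above all TNF libraries in the chaperone and ERAD arm, and the ATF4 arm has its highest point in TNF library 1 at 0.26.

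Control library 2 was the highest Control library in 23 of the 33 members, 13 of 17 in the chaperone and ERAD arm and 6 of 11 in the ATF4 arm. The same count over all genes was not made. The mean log2 CPM over all tested genes, relative to the Control mean, was -0.02 in that library. Control library 2 also had the highest summed macrophage markers and the highest mitochondrial share given above. Its summed MSC markers were highest too, at 4898 TPM, against 4224 and 3959 TPM in Control libraries 1 and 3. In TNF libraries 1, 2 and 3 the MSC sum was 3462, 3041 and 3367 TPM. The part of these traits in the result was not tested. Without Control library 2, 9 members were called higher and 0 lower, with Hyou1, Manf and Nupr1 added and Ppp1r15a lost. Over all genes that fit called 2413 higher and 2382 lower, against 2489 and 2550 with all libraries. Without Control library 2 and TNF library 2, the library rich in 18S reads, 13 members were called higher and 0 lower, with Asns, Derl2, Phgdh and Trib3 added to those 3 and Ppp1r15a again lost. All genes then had 2721 higher and 2518 lower calls. Ern1, Hspa5, Creld2 and Syvn1 were called whichever single library was left out. Atf4 was not called without TNF library 1, and the ATF4 arm then had 0 called members. Dnajb9 was called in 1 of the 6 repeats, that without Control library 2. Ppp1r15a was called in 2 of the 6, those without TNF library 3 and without Control library 3. With scaling to library totals, without TMM factors, Ern1 was the only member called, and among all genes the share of calls that were higher was 38.5%, against 49.4% with TMM factors.

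By level per length, the members in Control spanned from 7.55 ± 0.630 TPM for Ern1 to 539 ± 18.8 TPM for Hsp90b1 (SD, n = 3 each). In TNF they spanned from 11.1 ± 0.253 TPM for Eif2ak3 to 493 ± 65.7 TPM for Hsp90b1. Ern1 averaged 14.3 ± 0.268 TPM in TNF, above the means of Eif2ak3, Chac1 (12.6 ± 2.06 TPM) and Trib3 (12.9 ± 2.25 TPM). In Control libraries Ern1 had the lowest mean level of all 33, below Eif2ak3 at 10.8 ± 0.412 TPM. Chac1 and Trib3 came next at 11.2 ± 1.33 and 11.3 ± 0.0264 TPM, a pair that did not differ beyond its spread. Hspa5 averaged 377 ± 21.4 TPM in TNF and 269 ± 32.7 TPM in Control, and Manf averaged 299 ± 49.4 TPM in TNF and 261 ± 3.92 TPM in Control. The Control level of Manf lay within the spread of that of Hspa5, so the order of this pair is not resolved in Control cells.

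Other genes of the ER folding machinery, listed for their function, gave calls in both directions. Of 20 further folding genes, 2 rose and 3 fell, with a median log2 fold change of -0.19. Ero1a, the oxidase that regenerates disulfide isomerases, had 129, 132 and 115 CPM in TNF libraries, against 55.7, 61.3 and 51.4 CPM in Control libraries, with no overlap and a log2 fold change of 1.16 (edgeR adjusted p = 3.89e-05). Txndc11, an ER thioredoxin-like protein, was higher by 0.47 on the log2 scale. Prdx4, an ER peroxiredoxin, was lower, at 48.5, 51.5 and 63.2 CPM in TNF libraries, against 79.7, 99.6 and 83.4 CPM in Control libraries (log2 fold change -0.69), and so were Ppib and Sil1, each at -0.47. The calreticulin gene Calr (log2 fold change -0.22), the calnexin gene Canx (0.05) and the disulfide isomerase genes P4hb (-0.35) and Pdia3 (-0.25) were not called. Ppib and Sil1 were each lost without TNF library 1 and without TNF library 2, and their values became -0.28 for Ppib and -0.27 for Sil1 without Control library 2 and TNF library 2. Without Control library 2 the list had 4 genes higher and 3 lower and its median became -0.04, and without both libraries it had 5 higher and 2 lower and a median of 0.02, so the negative median rested on those libraries. Of 18 translocon and signal peptide genes 0 rose and 1 fell (Ssr4, -0.39), and of 20 further ERAD genes 1 rose (Faf2, 0.28) and 1 fell (Os9, a lectin of ERAD, -0.44). With library totals neither Ssr4 (-0.46) nor Faf2 (0.19) was called. Ssr4 was called in 1 of the 6 repeats that leave out a library, that without TNF library 3, and its value without Control library 2 and TNF library 2 was -0.18. Faf2 was called in 2 of the 6, those without TNF library 3 and without Control library 2. Among 7 proteases and factors related to ATF6, Creb3l4 rose (1.09, at 1.91 CPM in TNF and 0.895 CPM in Control), and the protease gene Mbtps1 (-0.04) and Atf6b (0.22) were not called.

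Of 11 other genes of eIF2 and its kinases, 2 rose and 0 fell. Eif2ak2 encodes PKR, the kinase activated by double-stranded RNA, and had 208, 226 and 176 CPM in TNF libraries, against 84.3, 79.1 and 87.3 CPM in Control libraries. The groups were far apart, with a log2 fold change of 1.28 (edgeR adjusted p = 3.99e-05). Eif2ak1, the heme-regulated kinase gene, had a smaller rise of 0.29, which was lost with library totals and without TNF library 1, TNF library 2 or Control library 1, and Eif2ak4, the gene of the amino acid-sensing kinase, was not called (0.17).

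Further known targets of ATF4, which are not members, moved in both directions. Of 8 amino acid transporter genes 5 rose and 2 fell. Slc7a11, the cystine transporter gene, had 42.0, 44.2 and 42.0 CPM in TNF libraries, against 2.20, 2.90 and 1.86 CPM in Control libraries. This was a log2 fold change of 4.19 (edgeR adjusted p = 5.15e-07), and the gene is also a known target of the oxidative stress factor NRF2. Slc6a9, a glycine transporter gene, was higher by 1.09. Slc7a5 and Slc1a4, likewise described as ATF4 targets, were lower, with log2 fold changes of -0.55 and -0.55. The other 3 risers, Slc1a5, Slc3a2 and Slc7a1 (0.27 to 0.40), were not called with library totals. Slc7a1 was also lost without TNF library 1 or Control library 1, and Slc3a2 was called in 2 of the 6 repeats, those without TNF library 3 and without Control library 2. Of 10 enzymes of amino acid and one-carbon metabolism, Cth (1.24), Mthfd2 (0.34) and Gpt2 (0.40) rose and Aldh1l2 (-0.57) fell, with Mthfd2 and Gpt2 lost under library totals. Aldh1l2 was -0.36 without Control library 2 and was not called without TNF library 1 or TNF library 2. Mthfd2 was not called without TNF library 1 or Control library 1, and Gpt2 was called in 2 of the 6 repeats, those without TNF library 1 and without Control library 2.

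Of 12 tRNA synthetase genes, which are a classical ATF4 target group, 8 rose and 0 fell, with a median log2 fold change of 0.31, among them Lars (0.41), Wars (0.35) and Tars (0.31). These calls were sensitive to single libraries and to scaling: 0 of the 12 were called with library totals, on log2 TPM or without TNF library 1, and 1 without Control library 1, while the median stayed between 0.23 and 0.36. Of 13 regulators and secreted factors 6 rose and 1 fell. Trib1 (1.37), Vegfa (1.07), Sqstm1 (0.92) and Cebpb (1.23) were higher, genes that other inflammatory and stress factors are also known to induce. Stc2 (0.76) and Cebpg (0.54) were higher too. Both were called whichever single library was left out, and with library totals. Atf3, a stress-induced factor downstream of ATF4, was lower, at 20.5, 19.97 and 17.9 CPM in TNF libraries, against 22.6, 25.8 and 23.2 CPM in Control libraries (log2 fold change -0.30). Its groups did not overlap, but the call was lost whichever single library was left out, with log2 fold changes of -0.33 to -0.24. Gdf15, a secreted marker of the integrated stress response, had 14.6, 11.6 and 8.53 CPM in TNF libraries, against 11.3, 9.18 and 11.02 CPM in Control libraries, which overlapped.

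Chaperones of other compartments were measured for comparison. Of 8 mitochondrial chaperone and protease genes 3 rose, Lonp1 (0.46), Hspe1 (0.31) and Hspd1 (0.29), and 0 fell, and none of the 3 was called with library totals. Hspd1 was called in 0 of the 6 repeats that leave out a library and Hspe1 in 3 of them, those without TNF library 2, Control library 2 or Control library 3. Of 12 cytosolic heat shock genes 2 rose, Hspa1b (0.40) and Dnaja1 (0.39), and 2 fell, Hspb1 (-0.70) and Bag3 (-0.44). Hspa1b has a near-identical neighbour, Hspa1a, which was not called (0.08), and reads may be divided between them. Both rises were lost with library totals and both falls were kept. The genes Ppib, Sil1, Slc1a5, Slc3a2, Slc7a1, Gpt2, Stc2, Cebpg and Dnaja1 were named after their values were seen, to spell out short counts.

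**Figure D5:**
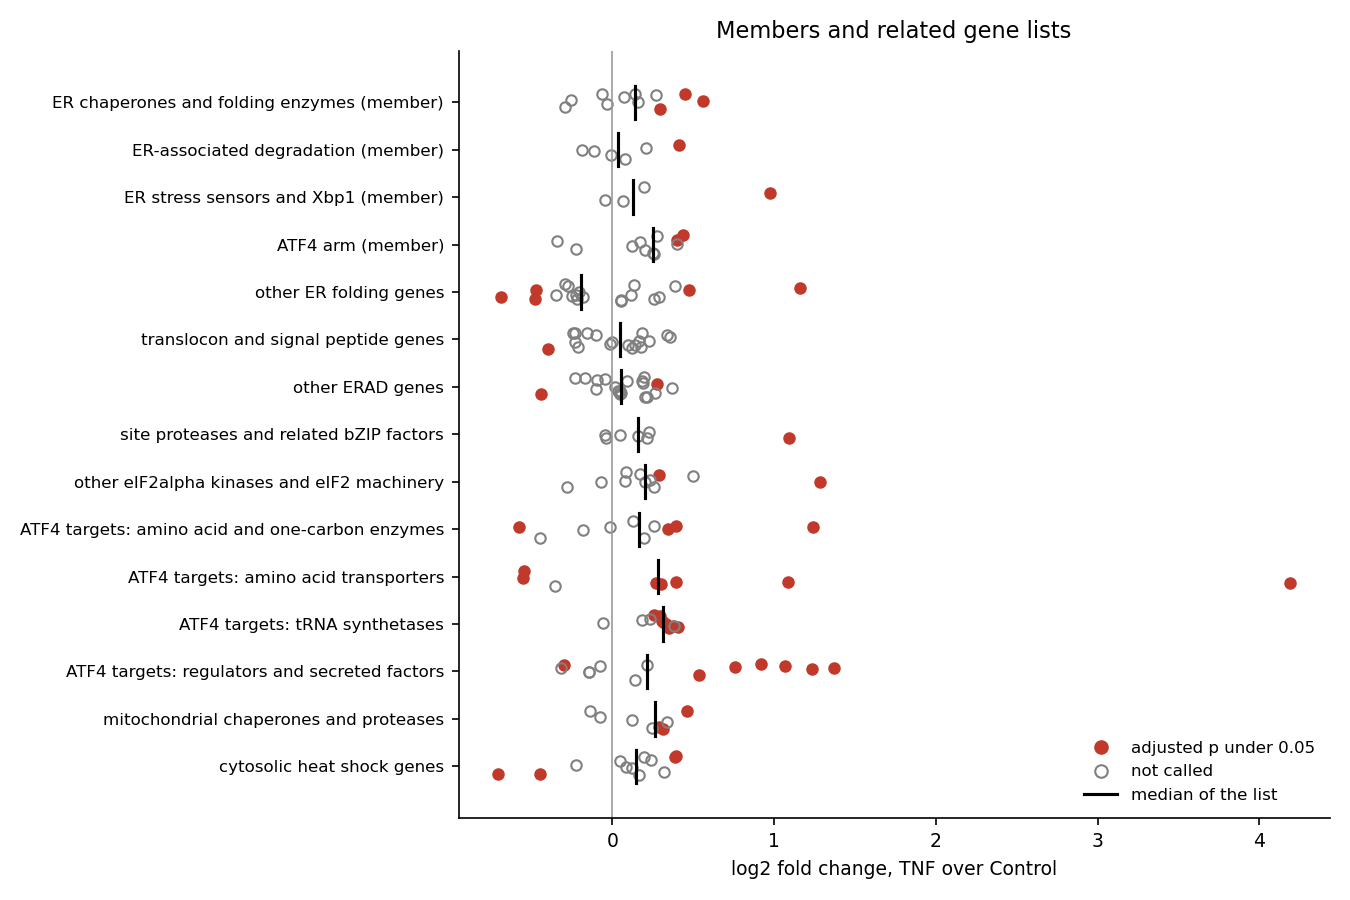
Log2 fold change of TNF over Control for the 4 member groups (top rows) and for 11 related lists, with called genes in filled red, other genes as open circles and a black bar at each list's median. Most tRNA synthetases lie close to their median of 0.31, and Slc7a11 at 4.19 stands alone among the transporters.

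The marker genes of other cells moved as well. Of 16 macrophage markers 3 rose and 7 fell, and of 12 MSC markers 4 rose and 2 fell. Without Control library 2, 5 macrophage markers were called higher and 6 lower, and the median log2 fold change of that list was -0.22, against -0.50 with all libraries. Of 7 neutrophil markers 2 were listed, Camp (log2 fold change 3.53) and S100a8 (1.93), and both rose at low levels (at most 1.73 CPM in any library). Of the 3 listed plasma cell and B cell markers Ighm fell (-0.98) and Prdm1 rose (0.70), and the 1 listed of 5 endothelial markers, Kdr, fell (-1.55). Prdm1 was not called without TNF library 1 or TNF library 2. Kdr was at most 0.316 CPM in any library and was not called without TNF library 1, Control library 1 or Control library 3. The part of these cell types in the values of the members was not tested. Among the macrophage falls were C1qc (60.6 ± 6.17 CPM in TNF and 167 ± 39.2 CPM in Control, SD, n = 3 each) and Cx3cr1 (6.50 ± 1.12 CPM in TNF and 25.3 ± 1.11 CPM in Control). Among the macrophage rises was Cybb (394 ± 44.8 CPM in TNF and 82.2 ± 18.5 CPM in Control).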

How the data were processed

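The authors deposited 2 tables per library, one of expected counts per gene as whole numbers and one of TPM with gene symbols. Per the submitters' processing notes, Trim Galore, STAR, StringTie and Salmon and build GRCm39 were used, with versions and settings not given in the sources used here. The deposited expected count tables have no gene column, so counts were joined to the deposited TPM tables by line. All 260 zeros of one fell on the 260 zeros of the other, and log2(count/TPM) had a median SD of 0.0276 across libraries, while shifting lines by 1 gave 0.421. The count tables are headed both raw and normalized. Their totals differ between libraries, and they were used as counts.

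Counts were fitted in edgeR 4.0.16 (R 4.3.3) with filterByExpr, TMM factors and the quasi-likelihood functions glmQLFit and glmQLFTest, with no covariate, with Benjamini-Hochberg adjustment over all tested genes. The SE is the absolute log2 fold change over the square root of F, and the 95% interval uses the same SE. Log2 CPM used a prior count of 2. The biological coefficient of variation was 0.132. Alternatives used DESeq2 1.42.0 and limma 3.58.1 among others. The members, gene lists and alternatives were chosen with earlier results of these data known. From each related list up to 3 called genes with the smallest adjusted p were named, with Calr, Canx, P4hb, Pdia3, Ero1a, Slc7a11, Atf3, Gdf15, Slc7a5, Cebpb, Eif2ak2, Eif2ak4, Mbtps1, Atf6b and Hspa1a. The range of library totals and of member counts, which sets the counting precision, is given in the report.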

Additional observations from a re-analysis of the deposited data

How the results depend on the processing

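No called member changed sign under any alternative. Members called higher numbered 7, and 1 with library totals, 2 on log2 TPM (pseudocount 1 or 0.1), 11 with the 18S share as a covariate, 13 without Control library 2 and TNF library 2, and 4 to 9 when a single library was left out. Members called lower numbered 0, and 1 with DESeq2 and with a filter of 1 CPM in 3 libraries (Atf5), and 0 to 1 when a library was left out (Psat1 without TNF library 3), always in the ATF4 arm. In the chaperone and ERAD arm the 4 calls became 0 with library totals, 1 on log2 TPM and 7 without Control library 2 and TNF library 2, and its median of 0.08 became -0.00 with library totals, 0.02 on log2 TPM (either pseudocount), 0.04 to 0.16 when a single library was left out (0.16 without Control library 2) and 0.19 without Control library 2 and TNF library 2. In the ATF4 arm the 2 calls became 0 with library totals and on log2 TPM, 1 at an adjusted p under 0.01, 4 with the 18S covariate and 5 without Control library 2 and TNF library 2, and ranged from 0 to 3 without a single library. Its median moved from 0.25 to 0.16 with library totals, 0.15 on log2 TPM plus 1, 0.16 on log2 TPM plus 0.1, and 0.18 to 0.29 when a single library was left out (0.18 without TNF library 1). Over all genes, 2489 higher calls became 1612 with library totals, 1479 on log2 TPM plus 1, 1475 on log2 TPM plus 0.1 and 1587 at an adjusted p under 0.01, where 2550 lower calls became 1534. Higher calls over all genes numbered 2478 with the 18S share as a covariate and 2721 without Control library 2 and TNF library 2. When a single library was left out they numbered 1721 to 2413. The median log2 fold change over all genes was -0.00 with TMM factors, -0.09 with library totals, -0.05 on log2 TPM plus 1 and -0.07 on log2 TPM plus 0.1. With TMM factors computed without 18S reads, the same 7 members were called. The cause was not tested.

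With the replicate number as a replicate block, 1987 genes were called higher and 1993 lower, 5 members were called (Dnajb9 and Ppp1r15a were not), and the ATF4 arm had 1 call. Same-numbered deviations correlated at -0.01, -0.30 and -0.22, and differently numbered ones at -0.23 to 0.36. These deviations were taken from the mean of only 3 libraries per group, so the values cannot decide whether the numbers pair the libraries. Every member had at least 460 counts in each library, and precision is limited by the 3 libraries per group. The 5 members without a promoter window were not searched for motifs.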
